A study of Rattus norvegicus with 24 samples.

Results

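Atp13a5, Abcc9, Kcnj8 and Cspg4 are genes used to mark pericytes, the contractile cells that sit on brain capillaries. They were followed in cortical microvessels of rats with acute liver failure. All probes with 1 of these names as their single gene symbol in the platform annotation were taken, which gave 6 of 31099 probes and 4 of 14218 genes. Abcc9 had 3 of them and each other gene had 1. The 24 arrays formed 3 groups of 8. HAL rats had a portocaval anastomosis, a shunt that leads portal blood past the liver, and ligation of the hepatic artery 24 h later. HEP rats had the same shunt and removal of the whole liver 24 h later. Sham rats had a mock operation in both steps and carried no shunt. Thus HAL and HEP share the shunt, and its effect and that of the second operation cannot be told apart. Rats were killed by decapitation 8 to 12 h after the last operation. Strain, sex and age are not given in the sources used here. Whether every array comes from its own rat is not stated, so the p-values cover the spread among arrays, which may be technical.

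Pericytes share the basement membrane of the capillary endothelium, help to keep the blood-brain barrier closed and adjust capillary width. Kcnj8 encodes the pore of an ATP-sensitive potassium channel and Abcc9 its sulphonylurea receptor subunit. This channel opens when cellular ATP is low and makes the membrane potential of mural cells more negative. In the GRCr8 gene table Kcnj8 and Abcc9 are direct neighbours among protein-coding genes. Atp13a5 encodes a P5-type ATPase and marks brain pericytes in mice. Cspg4 encodes the NG2 proteoglycan, which oligodendrocyte precursors carry as well. In whole microvessels a lower signal from fewer pericytes and one from less RNA per pericyte cannot be told apart.

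Only the decimals of the log2 signals are in the table as provided here, without their integer parts. A signal below 10 has 9 decimals and a signal from 10 on has 8, so the number of digits tells on which side of 10 a signal lies, apart from lost zeros. A level was read for probes with 1 to 14 cells of 9 digits, which were taken to lie near 10. In these, the decimals were added to 9 where the cell had 9 digits and to 10 where it had 8, and shorter cells gave no reading. A reading can be wrong by whole units for a signal below 9 or above 11, and a signal below 10 that lost a zero is read too high. Differences of readings therefore have no exact fold. Of the 6 probes 4 lay near 10, 1 of each gene, and all 4 entered the fit of 1738 genes. One more Abcc9 probe lay at 10 or above on all arrays and another below 10. Below 10 is used here for probes with more than 14 cells of 9 digits, so single arrays of such a probe can still reach 10.

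Before the results, 3 arrays stand apart. The median reading of all near-10 probes was 9.95 and 9.993 on HAL replicates 2 and 5 and 9.999 on Sham replicate 3, against 10.13 to 10.20 on the other arrays. The HAL minus Sham differences of the 4 genes are given with and without them. Of 19 pericyte markers with a probe, 5 had one whose signal reached 10 on each of the 24 arrays, among them Rgs5, Vtn and Higd1b. All probes were classed below 10 for 11 markers, among them Pdgfrb, Anpep, Notch3 and Mcam. Signals that always reached 10 were also found for 13 of 16 endothelial, 5 of 13 smooth muscle, 6 of 12 perivascular fibroblast, 4 of 10 astrocyte and 1 of 8 oligodendrocyte lineage markers. They were found for 0 of 11 neuron markers, 4 of which lay near 10, and for 0 of 10 microglia markers, all of which were classed below 10.

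Atp13a5 had lower readings in HAL than in Sham microvessels, and it was the only one of the 4 genes to pass the test in any comparison. Its readings in HAL had a lowest value of 9.12, a median of 9.73 and a highest value of 10.59 on 7 arrays read. In HEP they had a lowest value of 9.36, a median of 9.54 and a highest value of 10.36 on 6 arrays read, and in Sham 10.20, 10.41 and 10.98 on 8. All 8 Sham arrays thus lay above 10, while 1 of 7 HAL arrays (replicate 3) and 2 of 6 HEP arrays (replicates 7 and 8) did. These 3 arrays lay within the range of the Sham arrays, so the groups overlapped. Cells of 9 digits, which define the near-10 range, were counted over all groups. For Atp13a5 they were 6 in HAL, 4 in HEP and 0 in Sham. The probe thus entered the range only through HAL and HEP arrays that read below 10. The tests and shares given here do not allow for this and cannot by themselves show a fall. The mean reading was 9.69 ± 0.48 in HAL (SD, n = 7) and 10.48 ± 0.29 in Sham (SD, n = 8), a difference of -0.79 (95% interval -1.22 to -0.36, adjusted p = 0.0331 in limma with Benjamini-Hochberg adjustment). In that comparison 45 of 1738 genes, or 2.59%, were called lower and 3.8% were called in either direction. An exact two-sided permutation test of this single difference gave p = 0.0028.

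In HEP the mean reading of Atp13a5 was 9.76 ± 0.48 (SD, n = 6), a difference from Sham of -0.72 (95% interval -1.17 to -0.27). This did not pass over all genes (adjusted p = 0.0767 in limma), where 2.82% of genes were called in either direction. The exact two-sided permutation test of the single difference gave p = 0.0107. HAL and HEP differed from each other by -0.07 (95% interval -0.53 to 0.39, adjusted p = 0.959 in limma). That comparison called 0 of 1738 genes (0%), and 161 genes had an unadjusted p under 0.05 in limma. By their means the groups stood in the order HAL, HEP and Sham from low to high, and HAL and HEP did not differ beyond their spread. Both differences from Sham use the same Sham arrays.

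The lower Atp13a5 readings rest on the number of digits. Cells under 9 digits, which are all cells of signals at 10 or above and some of signals below it, were found on 2 of 8 HAL, 4 of 8 HEP and 8 of 8 Sham arrays. Fisher's exact test of these counts, two-sided, gave p = 0.00699 for HAL and p = 0.0769 for HEP. The same digit counts decided whether the probe entered the near-10 range, so this test is no separate support. The decimals taken alone, as angles around a circle with no use of the integer part, had a difference of 0.05 in HAL and 0.07 in HEP (adjusted p = 0.935 and 0.931 in limma). Angles wrap at 0.5, so they cannot show a shift of the size of these differences. That setting called 0 of 1738 genes in each comparison, and the decimals of this probe were widely spread. The decimals alone therefore do not test the lower readings. The call also depended on single arrays. Without the 3 arrays of low median readings the HAL difference was -0.63 and missed the threshold (limma, adjusted p = 0.176). It did not pass either without HAL replicates 2, 5 or 6 or Sham replicates 6, 7 or 8, each left out alone, with differences of -0.77 to -0.69 (adjusted p from 0.0549 to 0.0753 in limma). Over all 24 fits that left out 1 array, the difference lay between -0.94 and -0.69.

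**Figure D1:**
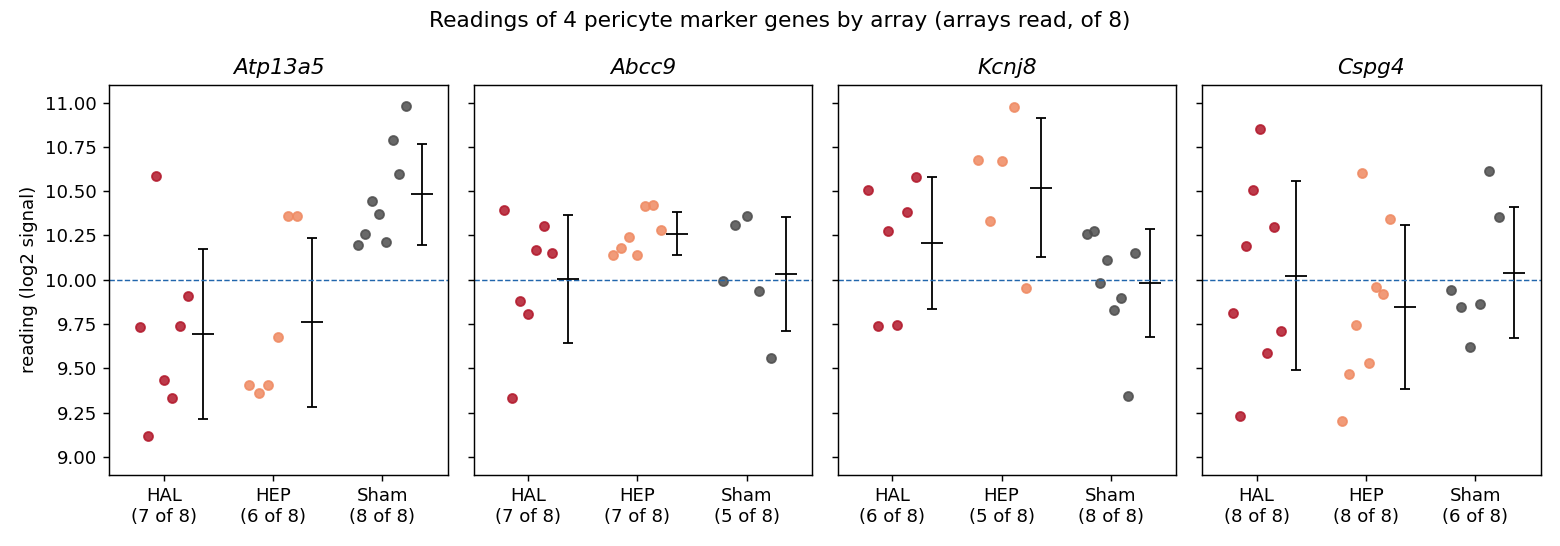
Readings (log2 signal) of the near-10 probe of each gene, with 1 point per array, by group, and the mean with SD beside them. The dashed line marks 10, and the number of arrays read is under each group. For Atp13a5 all 8 Sham points lie above 10, while 6 of 7 HAL points lie below it. The groups overlap for Atp13a5 through the HAL and HEP points above 10, and for the other 3 genes as well.

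Kcnj8, the channel pore, had its highest readings in HEP, but no difference passed. In HAL its readings had a lowest value of 9.74, a median of 10.33 and a highest value of 10.58 on 6 arrays read. In HEP they had 9.95, 10.67 and 10.97 on 5 arrays read, and in Sham 9.34, 10.04 and 10.27 on 8. Of these, 4 of 6 HAL, 4 of 5 HEP and 4 of 8 Sham arrays lay at 10 or above, and all groups overlapped. With the unread short cells included, cells under 9 digits were found on 6 of 8 HAL, 7 of 8 HEP and 4 of 8 Sham arrays. The mean reading was 10.52 ± 0.39 in HEP (SD, n = 5) and 9.98 ± 0.30 in Sham (SD, n = 8). The difference of 0.54 (95% interval 0.13 to 0.95) did not pass over all genes (adjusted p = 0.153 in limma), and the exact two-sided permutation test of this single difference gave p = 0.0171. Without HEP replicate 8 it was 0.68 and passed (adjusted p = 0.0466 in limma), and with short cells read as cells that lost leading zeros it was 0.36 (adjusted p = 0.3 in limma). In 3 of 8 HEP arrays the cell was too short to be read, so this mean rests on few arrays. With the decimals as angles the difference was -0.19 (adjusted p = 0.764 in limma). The decimals of this probe were spread almost evenly around the circle, so this value is no check of the direction. In HAL the mean was 10.21 ± 0.37 (SD, n = 6), a difference from Sham of 0.23 (95% interval -0.17 to 0.62, adjusted p = 0.563 in limma). HAL minus HEP was -0.31 (95% interval -0.75 to 0.12, adjusted p = 0.686 in limma). Without the 3 arrays of low readings these differences were 0.46 and -0.08 (adjusted p = 0.262 and 0.967 in limma).

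Abcc9, the receptor subunit of the same channel, was measured by 3 probes, and none of those tested had a difference that passed. Its near-10 probe had readings in HAL with a lowest value of 9.33, a median of 10.15 and a highest value of 10.39 on 7 arrays read. In HEP they were 10.14, 10.24 and 10.42 on 7 arrays, and in Sham 9.56, 9.99 and 10.36 on 5. All 7 HEP arrays read lay above 10, against 4 of 7 HAL and 2 of 5 Sham arrays, and HEP overlapped with both. With the unread short cells included, cells under 9 digits were found on 5 of 8 HAL, 8 of 8 HEP and 5 of 8 Sham arrays. The mean reading was 10.26 ± 0.12 in HEP (SD, n = 7) and 10.03 ± 0.32 in Sham (SD, n = 5), a difference of 0.23 (95% interval -0.13 to 0.59, adjusted p = 0.602 in limma). In HAL the mean was 10.005 ± 0.36 (SD, n = 7), a difference from Sham of -0.03 (95% interval -0.39 to 0.34, adjusted p = 0.964 in limma). HAL minus HEP was -0.26 (95% interval -0.59 to 0.08, adjusted p = 0.658 in limma). Without the 3 arrays of low readings HAL minus Sham was 0.22 and HAL minus HEP was -0.08 (adjusted p = 0.541 and 0.941 in limma).

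The second Abcc9 probe had 8 digits on all 24 arrays, so its signal lay at 10 or above throughout and no cell had lost a zero. Its integer part is unknown, but its decimals clustered. They ran from 0.37 to 0.90 with a median of 0.49 in HAL, from 0.30 to 0.66 with a median of 0.48 in HEP and from 0.42 to 0.70 with a median of 0.55 in Sham. The HAL array at 0.90 (replicate 1) lay above all others. The mean was 0.54 ± 0.17 in HAL, 0.51 ± 0.12 in HEP and 0.57 ± 0.09 in Sham (SD, n = 8 each). If no array moved by a whole unit, HAL minus Sham was -0.03 (95% interval -0.15 to 0.09, adjusted p = 0.897 in limma). HEP minus Sham was -0.06 (95% interval -0.17 to 0.06, adjusted p = 0.888 in limma). These values come from a fit of the decimals of 5752 probes outside the near-10 range whose decimals cluster, chosen after the data were seen. It called 0 probes (0%) in each comparison, with 649 of them in HAL and 399 in HEP at an unadjusted p under 0.05. Groups that differ widely spread a probe's decimals, and probes of spread decimals were left out of the fit. The missing calls therefore do not show unchanged levels. The narrower interval of the second Abcc9 probe still leaves room for small changes.

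The last Abcc9 probe had 20 cells of 9 digits, 3 of 8 and 1 shorter, so it was classed below 10. Its decimals spread too widely for that fit. On the cells of 9 digits they ran from 0.65 to 0.92 with a median of 0.82 in HAL on 6 arrays. They ran from 0.28 to 0.88 with a median of 0.57 in HEP and from 0.29 to 0.88 with a median of 0.73 in Sham, on 7 arrays each. HAL replicate 7, at 0.92, lay above all Sham arrays, and the groups overlapped. These values were not tested.

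**Figure D2:**
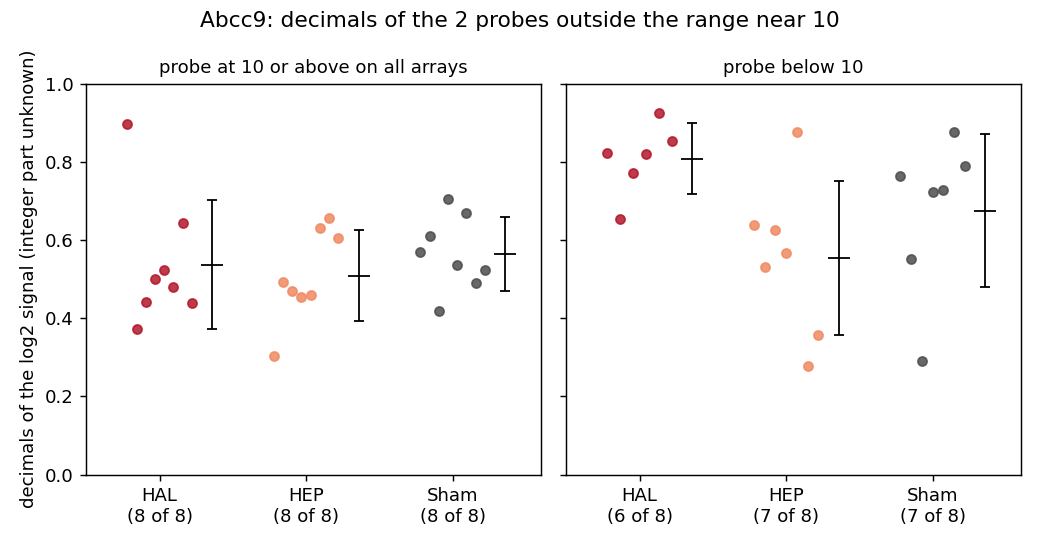
Decimals of the log2 signal (integer part unknown) of the Abcc9 probes outside the near-10 range, with 1 point per array by group and the mean with SD. The probe at 10 or above on all arrays keeps its decimals close together in all groups, apart from 1 HAL array at 0.90, and the probe below 10 spreads more widely.

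Cspg4, the NG2 proteoglycan, had similar readings in all groups. In HAL they had a lowest value of 9.23, a median of 10.001 and a highest value of 10.85, in HEP 9.20, 9.83 and 10.60, on 8 arrays each, and in Sham 9.62, 9.90 and 10.62 on 6. Of these 4 of 8 HAL, 2 of 8 HEP and 2 of 6 Sham arrays lay at 10 or above, and all groups overlapped. With the unread short cells included, cells under 9 digits were found on 4 of 8 HAL, 2 of 8 HEP and 4 of 8 Sham arrays. The mean reading was 10.02 ± 0.53 in HAL (SD, n = 8) and 10.04 ± 0.37 in Sham (SD, n = 6), a difference of -0.02 (95% interval -0.52 to 0.48, adjusted p = 0.986 in limma). In HEP the mean was 9.85 ± 0.46 (SD, n = 8), a difference from Sham of -0.19 (95% interval -0.69 to 0.31, adjusted p = 0.776 in limma). HAL minus HEP was 0.18 (95% interval -0.29 to 0.64, adjusted p = 0.868 in limma). Without the 3 arrays of low readings HAL minus Sham was -0.11 (adjusted p = 0.882 in limma). With 14 cells of 9 digits this probe stands at the edge of the near-10 range and may lie below it.

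**Figure D3:**
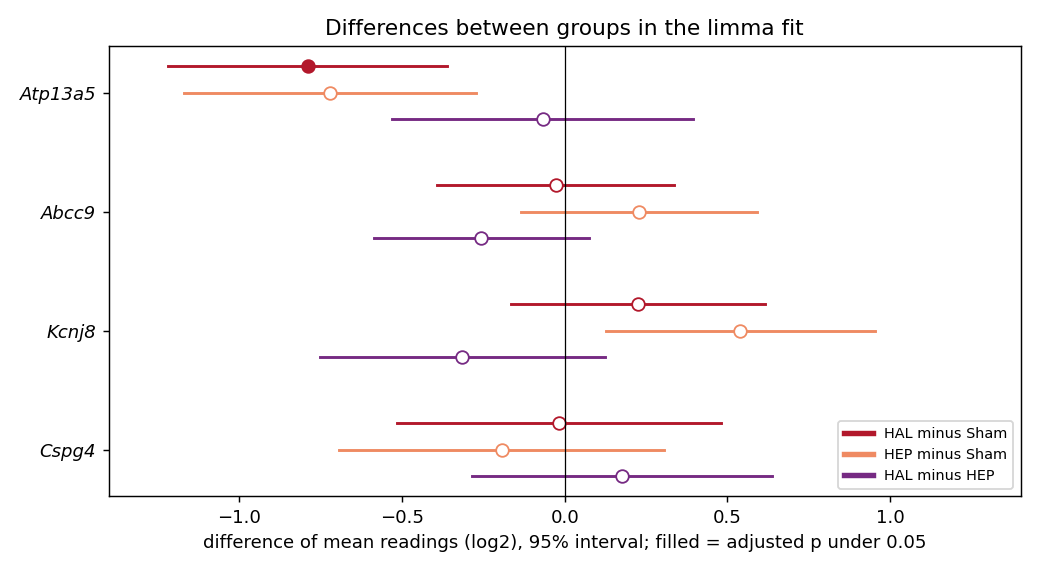
Differences of mean readings (log2) with 95% intervals for the 4 genes in the 3 comparisons. A filled point has an adjusted p under 0.05 in limma. The point of Atp13a5 in HAL minus Sham is the only filled one, and the intervals of Abcc9 and Cspg4 include 0 in all comparisons.

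Joint variation of the 4 genes as a set from array to array was not shown, and so few arrays read cannot exclude it. Correlations were computed for all 15 pairs of the 6 probes, on the arrays where both were read, with p-values from 100000 permutations, and none passed adjustment over the pairs. The near-10 probes of Kcnj8 and Abcc9, the subunits of the channel, had the highest correlation, with Pearson r = 0.695 on 15 arrays (permutation p = 0.00377, adjusted p = 0.0565) and Spearman rho = 0.65 (permutation p = 0.0102). Without the 2 arrays farthest from the median of Kcnj8, r was 0.554, and with group means subtracted it was 0.708. With each array's median reading subtracted it was 0.642. The other Abcc9 probes did not show this relation. Kcnj8 and the probe at 10 or above had r = 0.138 on 19 arrays (permutation p = 0.577, adjusted p = 0.73; rho = 0.049, permutation p = 0.842), r = 0.028 without the 2 farthest arrays and 0.324 with group means subtracted. Kcnj8 and the probe below 10 had r = -0.438 on 15 arrays (permutation p = 0.101, adjusted p = 0.379; rho = -0.507, permutation p = 0.0559), and r = -0.099 without the 2 farthest arrays. Among the probes of Abcc9 themselves the correlations went both ways. The integer part of the probe below 10 is unknown and its decimals spread widely, so its correlations do not show that the probes disagree. The near-10 probe and the probe below 10 had r = -0.497 on 15 arrays (permutation p = 0.058, adjusted p = 0.29; rho = -0.539, permutation p = 0.0398), r = -0.363 without the 2 farthest arrays and -0.707 with array medians subtracted. The near-10 probe and the probe at 10 or above had r = 0.511 on 19 arrays (permutation p = 0.0281, adjusted p = 0.211) and rho = 0.572 (permutation p = 0.0118). Their r was 0.439 without the 2 farthest arrays, 0.606 with group means subtracted and 0.299 with array medians subtracted. Atp13a5 and Kcnj8 had r = -0.325 on 17 arrays (permutation p = 0.204, adjusted p = 0.57; rho = -0.294, permutation p = 0.255; r = -0.176 without the 2 farthest arrays).

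Of the genes read on at least 18 arrays together with Atp13a5, 1104 in all, the 5 with the most similar readings were Dock1, Slc12a7, Palmd, Atp10a and Slc38a5, with r from 0.713 to 0.728 on 18 to 21 arrays. Atp10a, a P4-type ATPase, had differences of -0.90 in HAL and -0.81 in HEP (adjusted p = 0.00585 and 0.0122 in limma). Dock1, Slc12a7 and Palmd were not called in either model. For Kcnj8 the closest of 518 genes were Ptdss2, Ggnbp2, Lrrc8b, Ccdc9b and Tnfrsf1a (r from 0.724 to 0.8 on 18 or 19 arrays). Ptdss2, a phosphatidylserine synthase, was called higher in HEP (0.45, adjusted p = 0.0225 in limma), and the other 4 were not called in either model. The call of Ptdss2 was lost without HEP replicates 6 or 7 or Sham replicate 3, each left out alone (highest adjusted p = 0.0705 in limma). For Abcc9 they were Itga1, Irf2bpl, Plod3, C1h11orf58 and Ppm1l among 507 genes (r from 0.629 to 0.799 on 18 or 19 arrays), and for Cspg4 Slc5a7, Ssb, Khsrp, Mrpl18 and Spag16 among 1337 (r from 0.568 to 0.724 on 18 to 22 arrays), none of which was called in either model. These are descriptions across arrays of all groups, and group differences and array medians enter them.

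Among the other mural genes few could be read. Over all tested genes 3.8% were called in HAL and 2.82% in HEP, so 0 calls in a short list say little about the list. Of 5 tested pericyte markers, Atp13a5 was called lower in HAL, 0 were called in HEP, and the median difference was -0.02 in HAL and 0.09 in HEP, against -0.04 and 0.01 over all 1738 genes. The fifth, Rgs4, a regulator of G protein signalling, had differences of 0.05 and 0.09 (adjusted p = 0.935 and 0.9 in limma). Notch3, the mural Notch receptor, and Cd248, endosialin, could be compared by decimals only and were not called (adjusted p of at least 0.588 in limma). Their differences were 0.09 and 0.05 in HAL and 0.01 and -0.12 in HEP. The fit of decimals keeps only probes whose decimals cluster, so it cannot show that large changes are absent.

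Of the potassium channel family, Kcnj11 and Abcc8, the subunits best known from pancreatic beta cells, lay below 10 and were not read. Of the P5-type ATPases only Atp13a1, Atp13a2 and Atp13a5 had a probe, and the first and second of these lay below 10. Of other mural channels Stim1, the calcium sensor of the endoplasmic reticulum, was tested by readings, with differences of 0.03 in HAL and -0.09 in HEP (adjusted p = 0.964 and 0.855 in limma). Cacna1c, Cacna1h, Kcnk3 and Kcnq5, calcium and potassium channels, could be compared by decimals only and 0 were called. Their differences lay between 0.075 and 0.124 in HAL and between -0.029 and 0.077 in HEP (adjusted p of at least 0.37 in limma). That fit called 0 of 5752 probes and leaves out probes of spread decimals, so the missing calls do not show unchanged levels. Of 3 tested genes of mural tone 0 were called, against 3.8% of all tested genes in HAL and 2.82% in HEP. The smallest p in HAL was that of Gucy1b1, a subunit of the nitric oxide receptor guanylate cyclase, with a difference of -0.34 (adjusted p = 0.137 in limma).

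Of 6 tested genes that guide pericyte recruitment 0 were called, against 3.8% of all tested genes in HAL and 2.82% in HEP. Their median differences were -0.16 in HAL and 0.06 in HEP. Tgfbr1, a receptor of TGF-beta, had a difference of -0.36 in HAL (adjusted p = 0.305 in limma). Of the chondroitin sulphate proteoglycans, Bcan, brevican, was tested beside Cspg4 and had differences of 0.29 in HAL and 0.26 in HEP (adjusted p = 0.561 and 0.691 in limma).

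Some markers of the cells next to pericytes also read lower, as Atp13a5 did. Of 2 tested smooth muscle markers Tpm1, a tropomyosin, was called lower in both models. Its differences were -0.84 in HAL and -0.79 in HEP (adjusted p = 0.0108 and 0.0221 in limma). This rests on the only near-10 probe of the 7 Tpm1 probes. Tpm2 had differences of -0.13 and -0.32 (adjusted p = 0.732 and 0.345 in limma), while the decimals of its other probe had 0.12 and 0.05 (adjusted p = 0.462 and 0.92 in limma). Of 2 perivascular fibroblast markers Col3a1, a fibrillar collagen chain, was called lower in HAL. Its differences were -0.87 in HAL and -0.48 in HEP (adjusted p = 0.0295 and 0.288 in limma). Col1a2 had -0.83 and -0.61 (adjusted p = 0.0522 and 0.183 in limma). Of 4 endothelial markers Slc38a5, a glutamine transporter, was called lower in HAL, and the other 3 were not called. The differences of Slc38a5 were -0.79 in HAL and -0.53 in HEP (adjusted p = 0.00585 and 0.0901 in limma). Over all tested genes 3.8% were called in HAL and 2.82% in HEP, so 0 calls among few genes set no cell type apart. None of 4 astrocyte, 4 neuron and 3 oligodendrocyte lineage markers was called in either model. The smallest p in HAL among them were those of Fgfr3, a growth factor receptor of astrocytes, with differences of 0.41 in HAL and 0.08 in HEP, of Map2, a microtubule protein of neurons, with 0.45 and 0.08, and of Cnp, a myelin enzyme, with -0.20 and -0.67 (adjusted p of at least 0.132 in limma).

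The calls of Atp10a, Tpm1, Col3a1 and Slc38a5 in HAL held without the 3 arrays of low readings, with differences of -1.01, -0.87, -1.05 and -0.66 (adjusted p from 0.0153 to 0.0492 in limma). That of Col3a1 was lost without HAL replicates 6 or 8 or Sham replicates 2, 7 or 8, each left out alone (highest adjusted p = 0.0599 in limma). That of Tpm1 in HEP was lost without HEP replicates 1, 3 or 6 (highest adjusted p = 0.0563 in limma). Tpm1, Col3a1 and Slc38a5 lay above 10 on all 7 Sham arrays read. Like Atp13a5, they entered the near-10 range only through HAL or HEP arrays. With the decimals as angles none of Atp10a, Tpm1, Col3a1 and Slc38a5 was called in HAL, with differences of -0.03, 0.16, 0.13 and 0.02 (adjusted p of at least 0.719 in limma). That setting called 0 of 1738 genes in HAL and cannot show shifts of this size, so it is no check of these calls. The summed levels of these lists cannot be formed from the decimals, and the part of other vascular cells in the Atp13a5 difference was not tested.

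**Figure D4:**
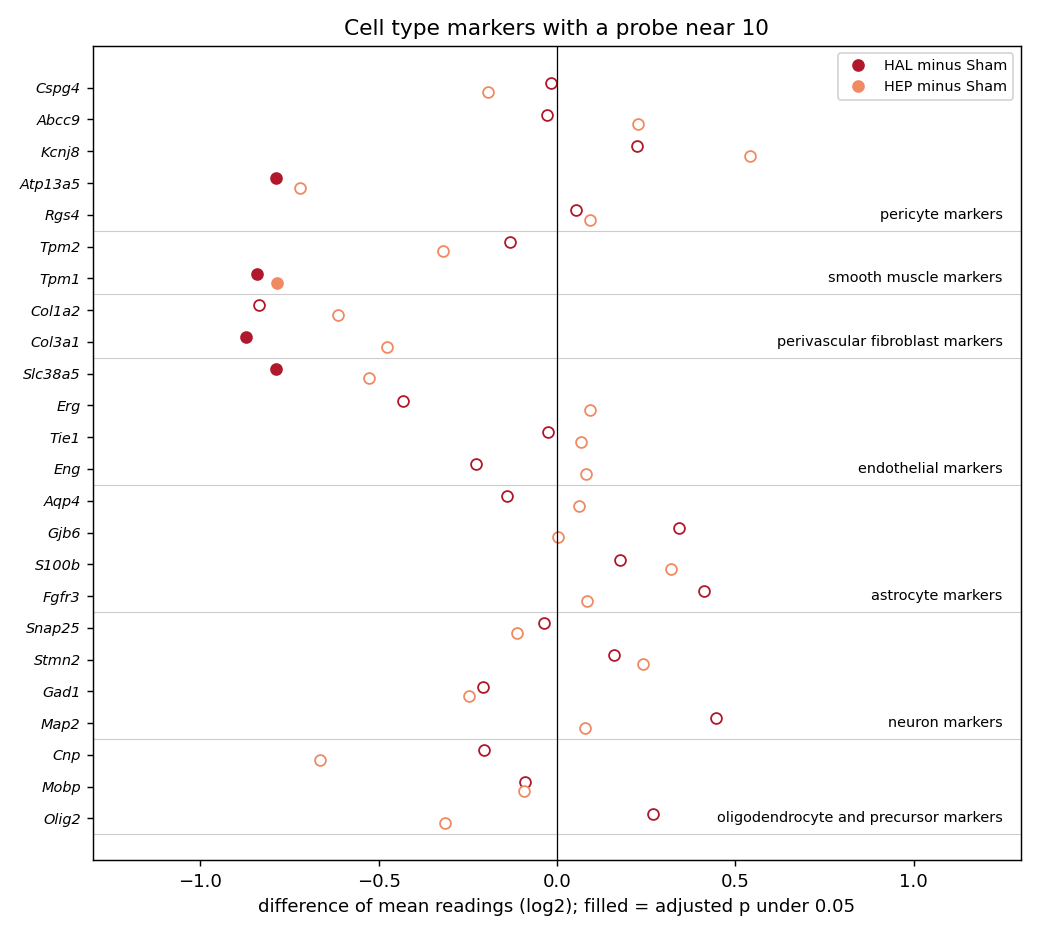
Differences of mean readings (log2) from Sham for the cell type markers with a probe near 10, 1 row per gene, for HAL and HEP. Filled points have an adjusted p under 0.05 in limma. Atp13a5 lies at -0.79 in HAL, beside Tpm1 at -0.84, Col3a1 at -0.87 and Slc38a5 at -0.79, while the other pericyte markers lie between -0.03 and 0.23 in HAL.

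**Figure D5:**
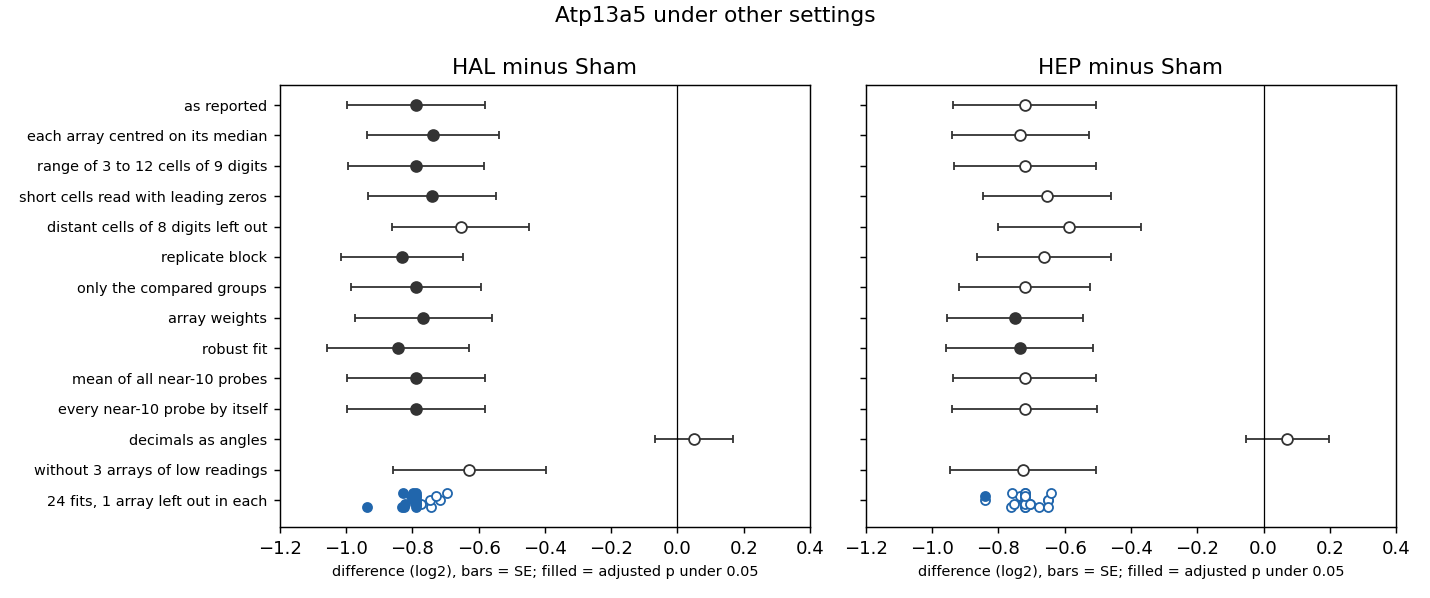
The Atp13a5 difference from Sham (log2, bars are SE) in HAL and HEP under each setting, and the 24 fits that leave out 1 array each. Filled points have an adjusted p under 0.05 in limma. All settings but the decimals as angles lie below 0, and the settings differ in whether the test is passed.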

How the data were processed

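Arrays of 24 samples, 8 per group by the labels, were analysed. RMA, named in the submitters' processing notes without a version, made the deposited log2 signals and normalises between arrays. The labels name a labelling kit for whole-transcript arrays and the probes are those of a 3' expression array, which was not resolved. The table as provided here has 746376 whole numbers of at most 9 digits, 0 of which end in 0, taken as decimals of log2 values with 10 significant digits. Of 31099 probes 2527 lay near 10, and 13.5% of their cells were too short to be read. Where a gene had several near-10 probes, that with the highest mean reading stood for it, with at least 2 readings per group. limma 3.58.1 in R 4.3.3 (lmFit, eBayes, group means over 24 arrays) was used, with Benjamini-Hochberg adjustment over 1738 genes and a threshold of 0.05. The reading and fit were also run on simulated data, and the outcome is not reported here. Digits were read in Python 3.11.15 (numpy 2.4.6, pandas 2.3.3) and exact tests run in scipy 1.17.1.

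The members, lists, reading and tests were chosen with earlier results of these data known. Beside the members, the text names all genes called within a list (where there is none, the gene of lowest p in HAL), and the 5 genes most similar to each member. Genes outside this rule (Rgs4, Tpm2, Col1a2, Notch3, Cd248, Cacna1c, Cacna1h, Kcnk3, Kcnq5 and marker genes given by level class) were named after their values were seen. No columns were identical (0). The median correlation of readings between arrays of a group was 0.171, and the number of arrays limits the precision. Neighbouring genes were taken from the RefSeq table of GRCr8, used for names only.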

Additional observations from a re-analysis of the deposited data

How the results depend on the processing

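The Atp13a5 difference from Sham kept its negative sign in HAL and HEP under all settings run but one. With decimals as angles, which cannot show a shift of that size, it was 0.05 in HAL and 0.071 in HEP. In HAL it no longer passed when distant cells of 8 digits were left out (-0.654, adjusted p = 0.0732 in limma) or without the 3 arrays of low readings (-0.628). Over the settings other than single arrays left out, its adjusted p in limma lay between 0.0138 and 0.935. In HEP it passed with array weights (-0.749), in a robust fit (-0.736), and without HAL replicate 3 or HEP replicate 8. It passed too in the exact permutation test (-0.721), but with no adjustment over genes. Kcnj8 in HEP passed in the exact permutation test (0.54), a test of a single value with no adjustment. With decimals as angles it was -0.185 in HEP and 0.285 in HAL minus HEP, and Cspg4 was -0.074 in HAL minus HEP. The decimals of both probes were spread widely around the circle, so these signs are no check of direction. Differences near 0 changed sign without passing. Abcc9 in HAL was 0.006 with each array centred on its median and 0.216 without the 3 low arrays, Cspg4 in HAL was 0.02 with each array centred, and Atp13a5 in HAL minus HEP was 0.098 without the 3 low arrays. The cause of these moves was not tested.

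With the replicate number as a block, Abcc9 in HAL was 0.088 and no other call or sign of the 4 genes changed. The block gave 63 calls in HAL and 41 in HEP. The groups share numbers only: same-numbered arrays deviated together with a median correlation of 0.002 (-0.068 to 0.15), and in 5 of 48 comparisons an array correlated best with its own number. With single arrays left out, Atp13a5 lay between -0.938 and -0.694 in HAL, between -0.84 and -0.64 in HEP and between -0.218 and 0.051 in HAL minus HEP. Abcc9 in HAL lay between -0.145 and 0.085, Cspg4 in HAL between -0.135 and 0.098, and Kcnj8 in HEP between 0.427 and 0.682. With a range of 3 to 12 cells Cspg4 was not among the near-10 probes and has no value.

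The number of genes called in HAL, 66, became 202 in a robust fit, 0 with decimals as angles and 37 without the 3 low arrays. In HEP, 49 became 32 in the range of 3 to 12 cells, 32 in a fit of the compared groups alone, 98 with array weights, 150 in a robust fit and 0 with decimals as angles, and lay between 22 (without HEP replicate 7) and 113 (without HEP replicate 8) with single arrays left out. In HAL minus HEP, 0 became 20 in a robust fit and at most 1 with an array left out (from 0). Signals away from 10 were not read, which limits all these values to the near-10 probes.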
